A study of Mus musculus with 20 samples.

Results

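The 9 interferon response genes described here were followed through mouse skeletal muscle. They were Irf7, Irf9, Isg15, Ifit1, Ifit3, Oasl2, Rsad2, Bst2 and Ifi27. They were chosen by name, as well-known interferon-stimulated genes, out of 53465 gene identifiers in the deposited tables, and all 9 were among the 15709 genes with enough counts to be tested. RNA sequencing of poly(A)-selected RNA had been done on muscle of wild-type (WT) mice, in 4 groups of 5 libraries: trained females, non-trained females, trained males and non-trained males. The labels for these mice give no age, no named muscle and no training protocol, and the animals that were not wild type were not analysed here. The design sets trained against non-trained mice within each sex, and males against females with and without training. Nothing in the labels ties a library to an animal of its own, so the p-values measure the spread between these libraries.

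Type I interferons are signalling proteins that cells release when they sense foreign or misplaced nucleic acid. They bind a receptor pair, Ifnar1 and Ifnar2, whose kinases start the signal inside the cell. Irf9 is the DNA-binding subunit of the complex ISGF3 that then forms, which binds the interferon-stimulated response element (ISRE) in the promoters of a large set of genes, the interferon-stimulated genes. Irf7 amplifies the loop, since it is itself induced and switches on interferon genes. Muscle fibres, blood vessel cells and immune cells all carry the receptor, so a bulk muscle library sums the response of all of them.

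The promoters were read first, to see which of them hold the ISRE letters. RefSeq promoter windows of 250 bases before the annotated start (build GRCm38.p6) were at hand for 8 of the 9 genes, Ifi27 being the one without. The ISRE letters, GAAA followed by NN (any pair of bases) and a second GAAA, were searched on both strands with overlapping matches counted. They were present in 5 of these 8 genes, against 3.46% of all 27025 genes in the table, and 2.98% of the 32851 windows held them. Among a wider list of other interferon-stimulated genes, 20 of the 56 with a window held them (35.7%). The 5 windows follow, 5′ to 3′ on the strand of the gene, with ISRE matches in capitals (reading TTTC, NN, TTTC where the match lies on the opposite strand).
Isg15, chr4:156200819-156201068, minus strand: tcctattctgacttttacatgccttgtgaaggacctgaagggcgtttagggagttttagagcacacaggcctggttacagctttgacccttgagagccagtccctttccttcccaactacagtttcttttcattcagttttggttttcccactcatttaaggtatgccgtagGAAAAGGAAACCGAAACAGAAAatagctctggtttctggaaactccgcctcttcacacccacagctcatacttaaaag
Ifit1, chr19:34640639-34640888, plus strand: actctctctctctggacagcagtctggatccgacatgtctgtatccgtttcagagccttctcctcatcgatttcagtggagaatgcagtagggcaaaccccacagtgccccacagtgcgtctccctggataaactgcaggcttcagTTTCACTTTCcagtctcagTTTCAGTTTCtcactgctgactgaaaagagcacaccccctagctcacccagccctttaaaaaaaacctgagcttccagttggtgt
Ifit3, chr19:34583279-34583528, plus strand: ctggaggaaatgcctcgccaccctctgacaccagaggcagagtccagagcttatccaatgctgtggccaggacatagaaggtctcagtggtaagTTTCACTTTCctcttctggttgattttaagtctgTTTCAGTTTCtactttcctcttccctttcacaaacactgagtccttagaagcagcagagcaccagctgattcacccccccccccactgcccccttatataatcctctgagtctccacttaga
Rsad2, chr12:26456453-26456702, minus strand: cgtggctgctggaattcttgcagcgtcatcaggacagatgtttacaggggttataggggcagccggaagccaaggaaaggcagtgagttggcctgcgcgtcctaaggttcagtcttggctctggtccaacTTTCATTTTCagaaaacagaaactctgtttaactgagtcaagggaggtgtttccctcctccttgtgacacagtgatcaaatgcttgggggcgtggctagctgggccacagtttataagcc
Bst2, chr8:71537473-71537722, minus strand: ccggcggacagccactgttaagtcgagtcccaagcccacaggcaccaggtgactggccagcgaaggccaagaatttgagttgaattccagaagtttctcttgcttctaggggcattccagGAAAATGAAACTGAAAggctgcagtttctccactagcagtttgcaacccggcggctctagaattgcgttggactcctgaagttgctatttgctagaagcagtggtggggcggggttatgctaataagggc
Isg15 held 3 matches that overlap each other, beginning 78, 72 and 66 bases before its start. Ifit1 held 2, at 104 and 85 bases, and its neighbour Ifit3 held 2 with the same letters, TTTCACTTTC and TTTCAGTTTC, at 156 and 122 bases. Rsad2 held 1 match at 120 bases. Bst2 held 2 overlapping matches at 130 and 124 bases. The windows of Irf7, Irf9 and Oasl2 held no match. By the GENCODE M21 gene positions given below, the 2 windows of Irf9 (chr14:55603735-55603984 and chr14:55604329-55604578) lie within the gene. The window of Irf7 (chr7:141266425-141266674) reaches into its gene. The bases just before the GENCODE M21 start of Irf9 were therefore not searched. A match is a stretch of letters and not a measured binding site.

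Most of the 9 genes were weakly expressed. Per unit of transcript length, in TPM, the length-scaled unit that the authors deposited, Ifi27 was the highest at 48.4 ± 6.10 TPM over the 20 libraries (SD), and Bst2 followed at 10.6 ± 3.46 TPM. The level of Irf9 was 5.06 ± 1.21, of Irf7 3.78 ± 2.0, of Ifit3 3.60 ± 1.29 and of Oasl2 3.08 ± 1.12 TPM. Isg15 stood at 2.35 ± 1.61, Rsad2 at 2.2 ± 1.51 and Ifit1 at 1.61 ± 0.880 TPM. The median tested gene stood at 5.36 TPM, so 7 of the 9 lay below it. Apart from Ifi27 and Bst2, which stand clear of the rest, neighbours in this order overlapped within their SDs. Behind the values lay 9 to 104 expected counts per library for Isg15, 31 to 215.1 for Ifit1, 45 to 314 for Irf7 and 427 to 851 for Ifi27.

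Library totals ran from 22043145 to 38483572 counts, with 11.2% to 15.9% of them from mitochondrial DNA. The muscle label matched the markers: Acta1, the skeletal actin gene, stood at 21890 to 29060 TPM and Ckm, the muscle creatine kinase gene, at 17790 to 28990 TPM in the 20 libraries. In bulk tissue, fewer cells of a type and less RNA per cell cannot be told apart.

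By the median, over the 9 genes, of the level relative to each gene's median over the 20 libraries, 3 libraries ranked highest. Each also stood apart from its own group in markers of other cells. By the summed CPM of the 9 genes one of them, library 3 of the trained males, was close to its neighbours, at 59.96 CPM against 59.87 CPM in library 5 of the trained males and 58.2 CPM in library 5 of the non-trained males. The highest was library 4 of the non-trained males. Its median ratio was 2.47-fold, and it had the highest value of all 20 libraries for 7 of the 9 genes, both in CPM, counts put on a common library size, and in TPM. Over all tested genes, the same library was the highest of 20 for 4.37%. The ratio ran from 1.0 for Ifi27 to 4.21 for the gene furthest above its median. Of 71 other interferon-stimulated genes, 38 had their highest value of the 20 libraries there (53.5%), among them Ube2l6, which encodes the conjugating enzyme of the Isg15 pathway, at 15.7 CPM against a median of 2.92 CPM in the other 19, and Oas2, an RNA-sensing oligoadenylate synthetase gene, at 11.8 against 3.19 CPM. All 7 erythroid markers were also highest there: their summed level was 3764 CPM, against a lowest value of 244.4 and a median of 487.1 CPM in its group. Of the 4 neutrophil markers with enough counts, 3 were highest there. The sum of all 10 neutrophil markers was 15.2 CPM against a group median of 1.82 CPM. Among these 10, Ly6g, Mpo, Elane, Ngp and Camp had a median of 0 over the 20 libraries. Of 9 fibroblast markers, 5 were highest there, with a sum of 1407 CPM against a group range of 749.8 to 1407 CPM, and the 12 macrophage markers had a median ratio of 2.57-fold, with the highest sum of the group, 373.0 CPM. The part of these genes of other cells in the interferon response of this library was not tested. The genes named here for this library, and below for library 3 of the trained males, were chosen after their values were seen.

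Library 2 of the trained females was also examined on its own. Its median level over the 9 genes was 1.34-fold the median of the 20 libraries, the third highest. It was the highest of its group for 6 of the 9 genes, Isg15, Ifit1, Irf7, Irf9, Bst2 and Rsad2, but the highest of all 20 for only 1, Bst2, at 8.66 CPM, and for 0 of them by TPM. Isg15 there stood at 2.08 CPM, 2.98-fold the median of the other 4 trained females. Irf7 stood at 5.80 CPM (2.57-fold), Rsad2 at 7.94 CPM (2.04-fold), Bst2 was 1.97-fold, Ifit1 1.45-fold and Irf9 1.44-fold the same median. Ifit3, Oasl2 and Ifi27 lay within the range of the other 4, at 0.909-fold, 1.18-fold and 1.04-fold their median.

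Of the wider interferon lists, that of the interferon gamma response and antigen presentation had the highest median ratio in that library, 1.58-fold. The ratio was 1.14-fold for the other interferon-stimulated genes and 1.05-fold for the interferon regulatory factors. It was 1.003-fold for receptor and JAK-STAT genes, 0.976-fold for chemokine and cytokine genes and 0.962-fold for genes of nucleic acid sensing. Of 35 genes of the interferon gamma response and antigen presentation, 14 had their highest value of the 20 libraries there (40.0%), where over all tested genes the library was highest for 8.91%. Of the 71 other interferon-stimulated genes, 5 had their highest value of the 20 there (7.04%), and 38 were the highest of the trained females (53.5%), where over all tested genes the share was 27.5%. The difference between the 2 lists was not tested. Tgtp1 and Tgtp2, interferon gamma-induced GTPase genes, stood at 15.9 and 30.6 CPM, against medians of 2.10 and 5.45 CPM in the other 19 libraries. They are near-identical copies, so the split of reads between them is uncertain. Gbp4, a guanylate-binding protein gene, stood at 21.4 against 7.16 CPM, and Tap1, which encodes a peptide transporter of antigen presentation, at 8.91 against 3.65 CPM. Socs3, a feedback inhibitor of JAK-STAT signalling, stood at 9.95 CPM against 3.31 CPM, and Irf1, a regulator induced by interferon gamma, at 13.0 against 8.18 CPM. Over all genes, those furthest above every other library were Selp, Icam1, Tgtp1, Apold1 and Ackr1, 4 of which (all but Tgtp1) are known from blood vessel endothelium. Selp, encoding P-selectin, stood at 14.4 CPM, against a highest value of 5.31 CPM elsewhere. Of 11 endothelial markers, 6 were highest of 20 there, with a sum of 530.4 CPM against 370.5 to 530.4 CPM in the group, and the 7 erythroid markers summed to 810.5 CPM against a group median of 269.1 CPM. The 4 neutrophil markers with enough counts had a median ratio of 5.03-fold. All 10 neutrophil markers together summed to 5.58 CPM against a group median of 0.997 CPM. The 9 fibroblast markers were at 0.355-fold, with a sum of 358.4 CPM, the lowest of a group whose median was 649.2 CPM. None of these erythroid, neutrophil or fibroblast values was the most extreme of the 20 libraries. Library 1 of the non-trained females, with the 9 genes at 0.730-fold, had neutrophil markers at 6.32-fold and fibroblast markers at 0.121-fold. In library 5 of the non-trained females, with the 9 genes at 1.08-fold, neutrophil markers were at 7.46-fold. Library 2 of the non-trained males, with the 9 genes at 0.924-fold, held 1182 CPM of erythroid markers. The part of these markers of other cells in the interferon response genes was not tested.

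Library 3 of the trained males ranked second, with a median level over the 9 genes of 1.38-fold, yet by CPM it was the highest of 20 for 0 of them, and by TPM for 1, Bst2. It was the highest of 20 for 19 of the 71 other interferon-stimulated genes (26.8%), against 10.1% over all tested genes. Slfn2, a Schlafen family gene of immune cells, stood there at 11.1 CPM against a median of 2.55 CPM in the other 19. Of 12 macrophage markers, 11 were highest there, and their sum was 726.0 CPM against a range of 126.0 to 726.0 and a median of 238.0 CPM in the group. The 10 neutrophil markers summed to 17.0 CPM, the highest of the 20 libraries, against a group median of 1.90 CPM. Their part was not tested either.

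**Figure D1:**
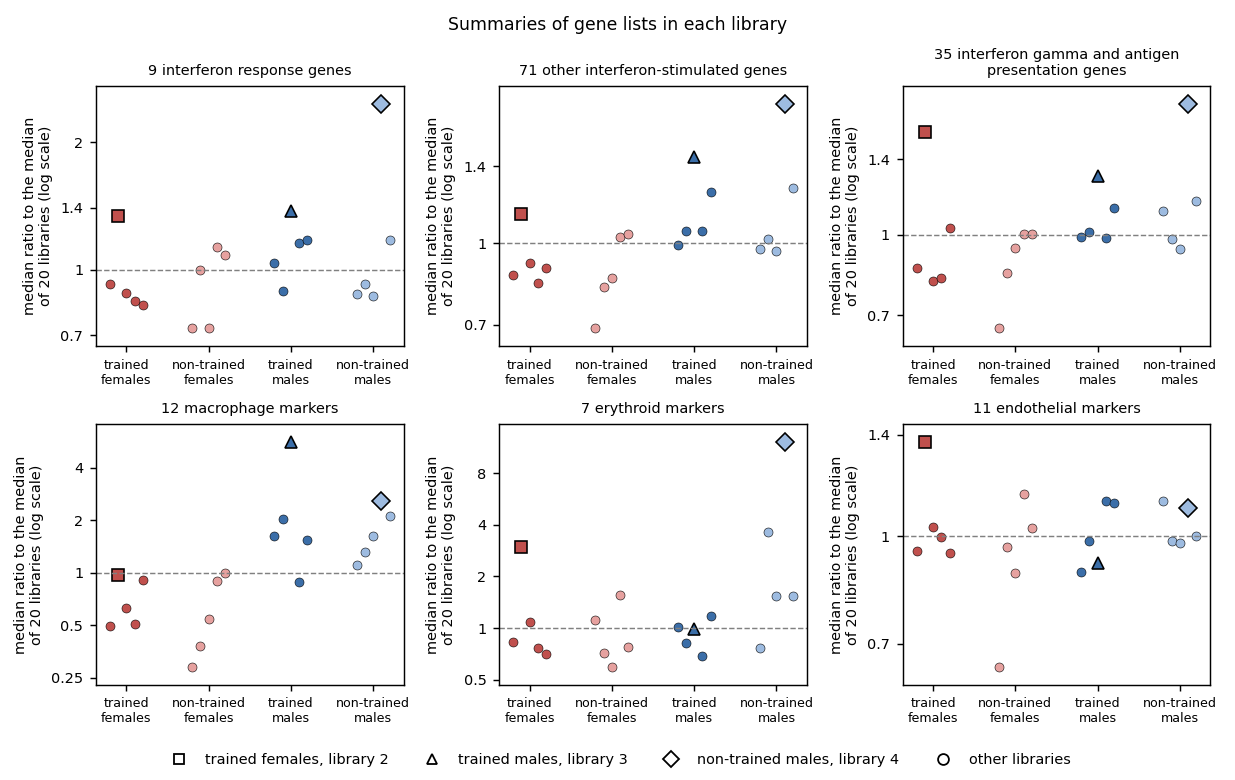
Each point is 1 library and shows the median, over the genes of a list, of the level relative to that gene's median over the 20 libraries, on a log axis. The square is library 2 of the trained females, the triangle library 3 of the trained males and the diamond library 4 of the non-trained males. The diamond is highest for the 9 interferon response genes (2.47-fold), the other interferon-stimulated genes, the interferon gamma list and the erythroid markers. The triangle is highest for macrophage markers and the square for endothelial markers.

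The regulators are given first, with GRCm38 positions from GENCODE M21. Irf7 lies at chr7:141262706-141266481 on the minus strand. It stood at 1.55, 5.80, 2.18, 2.63 and 2.34 CPM in libraries 1 to 5 of the trained females, against 2.66, 2.95, 1.81, 3.34 and 3.20 CPM in the non-trained females. In trained males it stood at 4.23, 2.63, 4.76, 5.10 and 3.74 CPM, against 1.96, 2.95, 2.39, 10.7 and 3.54 CPM in non-trained males. Library 2 of the trained females and library 4 of the non-trained males were the highest of the 20, the next 4 values were all from trained males, and every pair of groups overlapped. The log2 difference with training was 0.06 (SE 0.41) in females and -0.08 (SE 0.40) in males, with adjusted p = 0.99 and 1 by edgeR's quasi-likelihood test. Without library 2 of the trained females the female difference was -0.36, and without library 4 of the non-trained males the male one was 0.59. The male minus female difference was 0.49 (SE 0.41, adjusted p = 0.54) in trained and 0.63 (SE 0.41, adjusted p = 0.39) in non-trained mice. In the trained mice it was 0.91 (adjusted p = 0.22) without female library 2. With that library and library 4 of the non-trained males both left out, a setting added after the data were seen, the difference in trained mice was 0.91 with an SE of 0.24 and adjusted p = 0.039, and over all alternatives the adjusted p ran from 0.039 to 0.73. In the non-trained mice the difference was -0.04 without male library 4. Irf7 overlaps Phrf1 on the opposite strand at its end, and the sources used here do not say whether strand was used in counting.

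Irf9 (chr14:55603571-55610030, plus strand), the DNA-binding subunit of ISGF3, varied about as much as the median tested gene. Its SD of log2 CPM within groups was 0.29, against a median of 0.26. It ranged from 5.44 to 9.66 CPM in trained females and from 5.84 to 8.31 CPM in non-trained females, with female medians of 6.83 CPM with training and 7.16 CPM without it. In males it ranged from 6.4 to 9.75 CPM with training and from 6.31 to 12.3 CPM without, with male medians of 7.30 CPM with training and 6.68 CPM without it. Again the highest value was library 4 of the non-trained males. Training differences were 0.03 (SE 0.18) in females and -0.02 (SE 0.18) in males, and the 95% intervals ran from -0.34 to 0.41 and from -0.40 to 0.35.

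Isg15 (chr4:156199424-156200818, minus strand) encodes a ubiquitin-like protein that is conjugated to other proteins, and it was the most scattered of the 9 over the 20 libraries. In trained females it stood at 0.309, 2.08, 0.771, 0.621 and 0.802 CPM, against 0.503, 0.912, 0.616, 1.27 and 1.33 CPM in non-trained females. Trained males had 1.29, 1.19, 1.26, 1.44 and 1.02 CPM, against 0.735, 0.498, 0.692, 3.54 and 0.830 CPM in non-trained males. The trained males were the tightest group, with an SD of 0.152 CPM, and all 5 of them lay above all non-trained males but library 4. The group means hid this, at 1.24 ± 0.152 CPM with training and 1.26 ± 1.28 CPM without it (n = 5, SD). The log2 difference was -0.02 (SE 0.50, adjusted p = 1). Without library 4 the non-trained mean was 0.689 ± 0.140 CPM (SD, n = 4) and the difference 0.84, with adjusted p = 1. In females the difference with training was -0.01 (SE 0.51), and -0.56 without library 2, with adjusted p = 1 and 0.85.

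Ifit1 (chr19:34640871-34650009, plus strand) and Ifit3 (chr19:34583531-34588731, plus strand) are neighbours, and both belong to the IFIT family, in which Ifit1 binds foreign RNA and blocks its translation. Ifit1 stood at 1.72, 2.54, 2.31, 1.79 and 1.08 CPM in trained females, against 1.79, 2.98, 1.75, 3.69 and 3.24 CPM in non-trained females. In males it stood at 2.77, 1.71, 3.60, 3.34 and 2.88 CPM with training, against 1.99, 1.65, 2.70, 7.32 and 4.63 CPM without. The trained females were the lowest group on average, and 3 of the 5 non-trained females lay above all of them. The log2 differences with training were -0.51 (SE 0.36, adjusted p = 0.76) in females and -0.35 (SE 0.35, adjusted p = 0.99) in males, and the male difference was 0.06 without library 4 of the non-trained males. Males exceeded females by 0.60 (SE 0.36, adjusted p = 0.36) in trained mice, the largest such difference of the 9 genes there, and by 0.45 (SE 0.35, adjusted p = 0.48) in non-trained mice.

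Ifit3 showed no order between the groups, with 4.40, 3.65, 3.63, 6.14 and 2.58 CPM in trained females, against 2.66, 6.29, 4.73, 4.08 and 3.35 CPM in non-trained females. In trained males the values were 3.39, 2.29, 3.51, 3.44 and 5.23 CPM, against 3.67, 2.71, 3.15, 7.56 and 4.79 CPM in non-trained males. Its close copy Ifit3b, which is not one of the 9, did differ between the sexes. Ifit3b averaged 3.55 ± 0.513 CPM in trained males and 6.88 ± 1.23 CPM in trained females, a log2 difference of -0.95 (SE 0.23, adjusted p = 0.018), and 3.46 ± 0.750 CPM in non-trained males against 6.35 ± 2.2 CPM in non-trained females, a difference of -0.87 (SE 0.23, adjusted p = 0.03), with SDs over 5 libraries each. The call in non-trained mice was lost by limma-voom (adjusted p = 0.1), with library size alone (adjusted p = 0.053) and in 5 of the 20 fits with 1 library left out, and that in trained mice in 1 of 20. RSEM divides reads that fit both copies by estimation, so the sum is the safer value. Ifit3 plus Ifit3b averaged 7.13 ± 1.23 CPM in trained males and 10.96 ± 2.34 CPM in trained females, and 7.83 ± 2.54 CPM in non-trained males and 10.6 ± 3.34 CPM in non-trained females.

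Oasl2 (chr5:114896936-114912234, plus strand) belongs to the oligoadenylate synthetase family of enzymes, which answer to double-stranded RNA. It stood at 3.82, 3.08, 2.09, 2.48 and 2.75 CPM in trained females, against 1.31, 3.95, 2.43, 4.88 and 4.19 CPM in non-trained females. Trained males had 2.97, 2.71, 4.70, 3.87 and 5.01 CPM, against 3.40, 3.11, 3.29, 8.24 and 3.93 CPM in non-trained males. In non-trained males 4 of the 5 lay within 3.11 to 3.93 CPM, and library 4 stood at 2.10-fold the highest of them. Differences with training were -0.23 (SE 0.32) in females and -0.19 (SE 0.31) in males, and 0.17 in males without that library.

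Rsad2 (chr12:26442746-26456452, minus strand), encoding viperin, an enzyme that makes a chain-terminating ribonucleotide, had one library far above the rest of its group. In trained females it stood at 4.61, 7.94, 4.03, 3.76 and 2.44 CPM, against 3.77, 4.29, 3.18, 8.21 and 4.76 CPM in non-trained females. In trained males it stood at 4.61, 2.74, 3.54, 4.01 and 6.45 CPM, against 5.79, 5.13, 4.15, 18.7 and 4.85 CPM in non-trained males. Library 4 was at 3.24-fold the highest of the other non-trained males. The log2 difference with training in males was -0.85 (SE 0.40), with an unadjusted p of 0.047 and an adjusted p of 0.99, and it was -0.22 without library 4. Likewise, the male minus female difference in non-trained mice was 0.68 (SE 0.40, adjusted p = 0.34), and 0.05 without that library.

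Bst2 (chr8:71534255-71537456, minus strand), encoding tetherin, a membrane protein that holds budding viruses to the cell, is also a marker of plasmacytoid dendritic cells. It stood at 5.12, 8.66, 3.35, 3.69 and 5.96 CPM in trained females, against 3.19, 4.56, 6.06, 4.57 and 5.30 CPM in non-trained females. In trained males the values were 4.71, 4.45, 7.66, 5.76 and 5.28 CPM, against 3.64, 3.70, 3.36, 6.85 and 6.35 CPM in non-trained males. In 3 of the 4 groups its highest value was in one of the 3 libraries described above, which were ranked by the 9 genes, Bst2 included. The differences with training were 0.18 (SE 0.26, adjusted p = 0.90) in females and 0.22 (SE 0.26, adjusted p = 0.99) in males. The female one was -0.06 without library 2.

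Ifi27 (chr12:103434211-103440239, plus strand) encodes a small membrane protein, and its values were steadier than those of the other 8. Ifi27l2a, a related gene that older tables also call Ifi27, is a separate gene and was not counted with it. It stood at 19.7, 22.8, 22.8, 23.3 and 21.1 CPM in trained females, against 18.3, 18.8, 19.9, 18.8 and 21.8 CPM in non-trained females. In trained males it stood at 21.5, 23.5, 21.2, 20.2 and 23 CPM, against 21.8, 22.2, 18, 21.4 and 21.3 CPM in non-trained males. In females 3 trained libraries lay above all 5 non-trained ones, and in males the groups were mixed. The log2 difference with training was 0.17 in females, with an SE of 0.07, an unadjusted p of 0.034 and an adjusted p of 0.54. In males it was 0.06 (SE 0.07, adjusted p = 0.99). The mean of both sexes was 0.12 (SE 0.05, unadjusted p = 0.038, adjusted p = 0.52). Neither library 2 of the trained females nor library 4 of the non-trained males stood out for this gene.

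**Figure D2:**
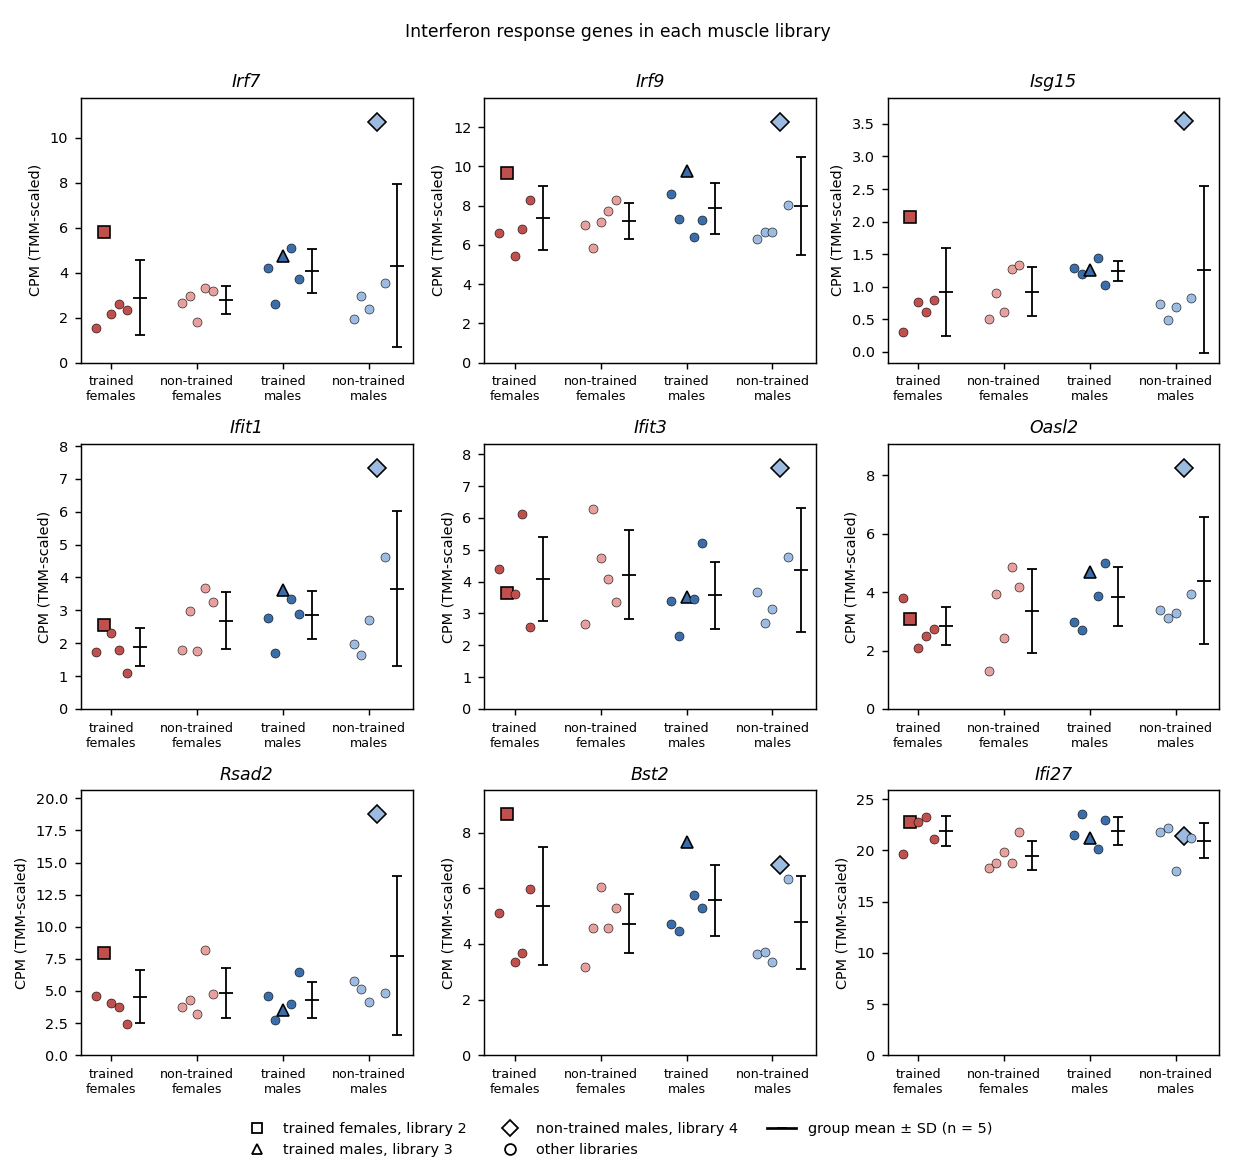
Each panel shows 1 gene, with the level of every library in TMM-scaled CPM on the vertical axis, and the mean ± SD of the group (n = 5) beside its points. The diamond, library 4 of the non-trained males, lies above all other libraries for Irf7, Irf9, Isg15, Ifit1, Ifit3, Oasl2 and Rsad2, and within its group's range for Ifi27.

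With training, none of the 9 genes passed the threshold of an adjusted p of 0.05. By edgeR's quasi-likelihood test 0 of 9 were called in females, where 0.0% of all 15709 genes were called, and 0 of 9 in males, where the share was also 0.0%. At an unadjusted p under 0.05 there was 1 of 9 in females (Ifi27) against 8.57% of all genes, and 1 of 9 in males (Rsad2) against 4.30%. DESeq2 and limma-voom called 0 of 9 in either sex, but DESeq2 gave no adjusted p for Isg15, Ifit1 and Irf7 in females. In females 4 of the 9 differences were above 0 and their median was -0.01. In males 2 were above 0 and the median was -0.08, and the median of all genes was 0.0 in both. For the mean of both sexes 0 of 9 were called, against 0.0127% of all genes, 1 of 9 had an unadjusted p under 0.05 and the median was -0.01. For the training by sex interaction, the male effect minus the female effect, 0 of 9 were called against 0.0% of all genes, 0 of 9 had an unadjusted p under 0.05, and the median was -0.06. The largest interaction was that of Rsad2, -0.78 (SE 0.57, adjusted p = 1), and it was -0.14 without library 4 of the non-trained males. The trained and non-trained libraries overlapped for every one of the 9 genes, where 1.35% of all genes in females and 1.09% in males did not overlap. The training and sex comparisons share libraries with each other.

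The intervals show what size of change these libraries leave possible. For Irf9 and Ifi27 the 95% interval of the female difference with training reached at most 0.41 on the log2 scale in either direction, while for Isg15 it ran from -1.08 to 1.06. For Irf7 it ran from -0.80 to 0.91 in females and from -0.91 to 0.76 in males.

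Between the sexes the 9 genes leaned to males in the non-trained mice, and none passed the threshold. In non-trained mice all 9 differences (male minus female) were above 0, with a median of 0.40 against 0.0 over all genes, and 0 of 9 were called where 5.21% of all genes were. Without library 4 of the non-trained males the difference was below 0 for Isg15 (-0.42), Ifit3 (-0.24), Bst2 (-0.15), Irf9 (-0.06) and Irf7 (-0.04), and between 0.03 and 0.09 for Ifit1, Oasl2, Rsad2 and Ifi27. In trained mice 6 of 9 were above 0, with a median of 0.09, and 0 of 9 were called where 5.6% of all genes were. No gene of the 9 had an unadjusted p under 0.05 in either state, against 20.7% of all genes in trained and 21.7% in non-trained mice, and DESeq2 and limma-voom called 0 of 9. Male and female libraries overlapped for all 9, where 7.38% of all genes in trained and 6.38% in non-trained mice did not overlap. The sum of 12 macrophage markers ran from 126.0 to 726.0 CPM in trained males against 72.2 to 150.7 CPM in trained females, and from 158.9 to 373.0 CPM in non-trained males against 46.5 to 139.8 CPM in non-trained females, and its part in the sex differences was not tested.

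**Figure D3:**
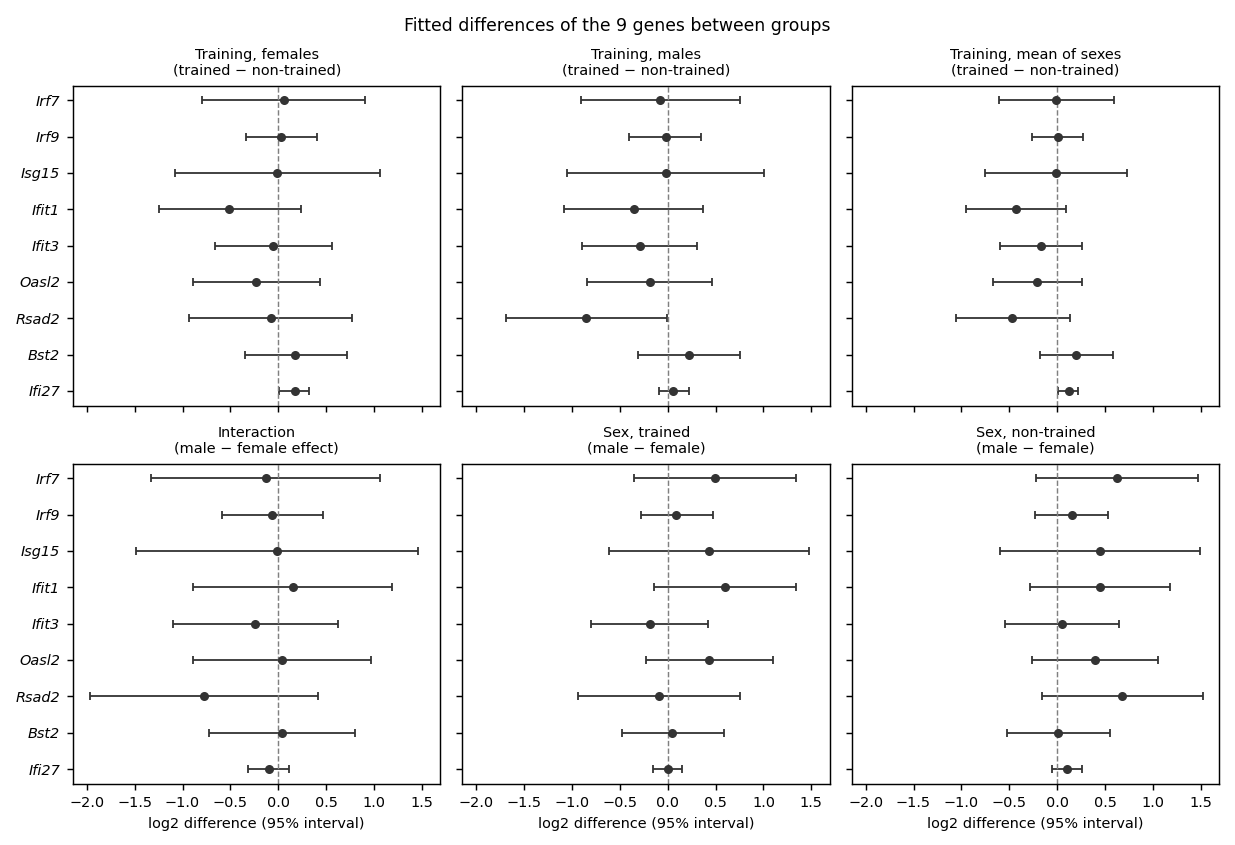
Fitted log2 differences of the 9 genes with 95% intervals from edgeR's quasi-likelihood fit, 1 panel per comparison, the horizontal axis being the log2 difference. The intervals exclude 0 only for Ifi27 in females and in the mean of the sexes and for Rsad2 in males. In non-trained mice all 9 points for male minus female lie above 0, from 0.01 for Bst2 to 0.68 for Rsad2.

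From library to library, 8 of the 9 genes varied together. The SD of log2 CPM within groups was 0.75 for Isg15, larger than that of 88.1% of tested genes, 0.64 for Irf7, 0.63 for Rsad2, 0.59 for Ifit1, 0.54 for Oasl2, 0.48 for Ifit3 and 0.43 for Bst2. It was 0.29 for Irf9 and 0.10 for Ifi27, near and below the median of all genes, 0.26. Leaving out library 2 of the trained females and library 4 of the non-trained males lowered it to 0.43 for Isg15, 0.35 for Irf7 and 0.42 for Rsad2, and the highest were then Ifit1 and Oasl2 at 0.49 and Ifit3 at 0.44. Across the 20 libraries, after group means were removed, the Pearson correlation of each gene with the mean of the other 8 ranged from 0.517 for Ifit3 to 0.832 for Irf7, with Ifi27 apart at 0.151. Over the 18 libraries without those 2 it ranged from 0.240 for Irf9 to 0.683 for Oasl2, with Ifi27 at 0.049. These correlations describe libraries that share a group, and they were lower for all 9 genes without these 2 libraries.

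**Figure D4:**
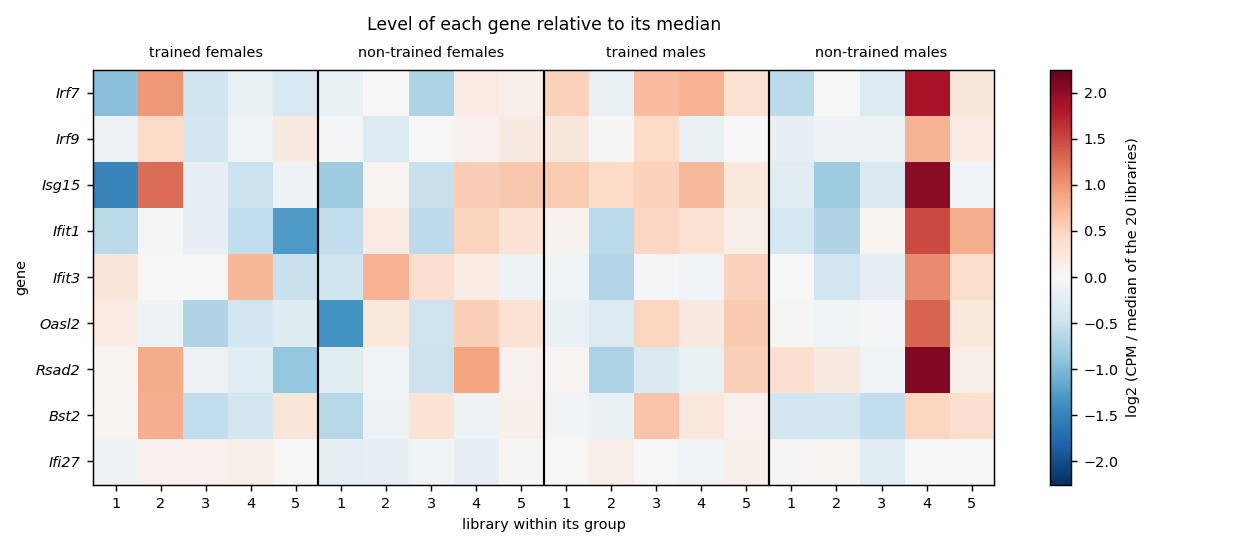
Each cell is the log2 ratio of a library's CPM to that gene's median over the 20 libraries, with genes in rows and libraries 1 to 5 of each group in columns. Library 4 of the non-trained males is above the median in every row except Ifi27, where it is close to it, and library 2 of the trained females is above it chiefly for Isg15, Irf7, Rsad2 and Bst2.

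The genes outside the set that followed it most closely were themselves mostly interferon-stimulated. By Pearson r over 20 libraries among 11672 genes, the 10 closest were H2-T24 (0.876), Gbp3 (0.874), Oas2 (0.855), Parp14 (0.853), Parp12 (0.850), Adar (0.847), Tapbp (0.847), Gbp9 (0.841), Ly6e (0.823) and Rnf213 (0.805). Of these 10, 7 belong to the list of other interferon-stimulated genes, which held 57 of the candidates. Without library 2 of the trained females 8 of the closest 10 belonged to that list, and 8 were shared with the first 10. Without that library and library 4 of the non-trained males, 2 belonged to it and 3 were shared, and the closest gene was Stoml1 (0.851).

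The wider response did not pass the threshold with training either. Of 77 other interferon-stimulated genes, 71 had enough counts to be tested, and 0 rose and 0 fell with training in each sex, as in the mean of both sexes and in the interaction. DESeq2 and limma-voom also called 0, and at an unadjusted p under 0.05 there were 5 of 71 in females and 1 of 71 in males, against the 8.57% and 4.30% of all genes given above. The smallest unadjusted p in females was that of Nmi, an interferon-induced gene, at 3.80 ± 0.691 CPM with training and 2.82 ± 0.477 CPM without it (n = 5, SD), with adjusted p = 0.49. In males it was that of Ube2l6, at 3.0 ± 0.704 CPM with training and 5.95 ± 5.56 CPM without it, with adjusted p = 0.99, its level in library 4 being given above. Of 16 receptor and JAK-STAT genes, 10 genes of other interferon regulatory factors and Irf2-binding proteins, 20 genes of nucleic acid sensing, 35 genes of the interferon gamma response and 11 chemokine and cytokine genes, 0 passed in either sex by edgeR or DESeq2, and of the 92 genes in these 5 lists 2 in females and 1 in males had an unadjusted p under 0.05.

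Between the sexes a few of the other interferon-stimulated genes did pass, at a share near that of all genes. In trained mice 4 of 71 were called, against 5.6% of all genes, and in non-trained mice 3 of 71, against 5.21%. Of the 71 other interferon-stimulated genes, 3 were higher and 1 lower in males among trained mice, against 3.39% and 2.22% of all genes. Of the 71 differences, 61 were above 0, with a median of 0.31 against 0.0 over all genes. Library 3 of the trained males was the highest of its group for 42 of the 71 (59.2%), against 26.4% over all tested genes. Samhd1, which encodes an enzyme that depletes nucleotides, averaged 34.8 ± 8.01 CPM in trained males and 23.4 ± 1.33 CPM in trained females, a log2 difference of 0.57 (SE 0.13, adjusted p = 0.013). Ifi203, of the DNA-binding Ifi200 family, averaged 15.1 ± 2.24 CPM in trained males and 8.12 ± 1.03 CPM in trained females, a difference of 0.90 (SE 0.21, adjusted p = 0.016), and both calls held in all 20 fits with 1 library left out. Ifi35 was higher by 0.57 (SE 0.14, adjusted p = 0.021), a call lost in 4 of those 20 fits, and the lower gene was Ifit3b. Members of the Ifi200 family are alike in sequence, so the split of reads among them is uncertain. In non-trained mice 2 of 71 were higher and 1 lower in males, against 3.14% and 2.07% of all genes. Of the 71 differences, 69 were above 0, with a median of 0.41 against 0.0 over all genes. Library 4 of the non-trained males was the highest of its group for 61 of the 71 (85.9%), against 21.2% over all tested genes. The differences of the whole list without that library are not given here. Ifi204 averaged 8.13 ± 3.39 CPM in non-trained males and 3.15 ± 1.11 CPM in non-trained females, a difference of 1.38 (SE 0.30, adjusted p = 0.01), which held in all 20 fits. Samhd1 was higher by 0.51 (SE 0.13, adjusted p = 0.025), a call lost without library 4 of the non-trained males (adjusted p = 0.071) and in 4 further such fits. DESeq2 called 13 of 71 in trained and 9 of 71 in non-trained mice, where it called 1401 and 1465 of all 15709 genes.

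Upstream of the 9 genes, 2 of 16 receptor and JAK-STAT genes were higher in trained males and 0 lower, to be read, as are the counts that follow, against the 3.39% higher and 2.22% lower of all genes in trained mice and the 3.14% and 2.07% in non-trained mice. Jak1, a kinase of the interferon receptors, averaged 201.9 ± 27.2 CPM in trained males and 152.9 ± 17.1 CPM in trained females, a difference of 0.40 (SE 0.10, adjusted p = 0.019), lost without library 2 of the trained females (adjusted p = 0.054) and without library 3 of the trained males (adjusted p = 0.057). Ptpn6, a phosphatase of blood cells, was higher by 1.80 (SE 0.46, adjusted p = 0.024), lost by limma-voom (adjusted p = 0.094), without library 3 of the trained males (adjusted p = 0.11) and in 3 further such fits. In non-trained mice 0 of 16 were higher and 1 lower in males: Ifngr2, a chain of the interferon gamma receptor, with 48.4 ± 3.92 CPM in non-trained males and 67.9 ± 12.9 CPM in non-trained females, a difference of -0.49 (SE 0.12, adjusted p = 0.016). Of 10 genes of other interferon regulatory factors and Irf2-binding proteins, 0 passed in trained mice and 1 was lower in non-trained males, Irf2bp2, which encodes a corepressor that binds Irf2 (-0.65, SE 0.18, adjusted p = 0.037), lost with library size alone (adjusted p = 0.054) and in 6 of the 20 fits with 1 library left out.

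Of 20 genes of nucleic acid sensing, 3 were higher and 0 lower in trained males. Tlr7 and Tlr8, which encode endosomal receptors for single-stranded RNA, differed by 2.28 (SE 0.48, adjusted p = 0.0083) and 2.71 (SE 0.64, adjusted p = 0.016), the second lost by limma-voom (adjusted p = 0.11) and without library 3 of the trained males (adjusted p = 0.074). Ikbke, a kinase that activates Irf proteins, differed by 1.26 (SE 0.37, adjusted p = 0.047), lost by limma-voom (adjusted p = 0.085) and in 15 of the 20 fits. In non-trained males 3 were higher and 0 lower, namely Ikbke, Ticam1 and Unc93b1, by 1.34, 0.54 and 1.28, each lost in 9 or more of the 20 fits, and Unc93b1 also with library size alone (adjusted p = 0.064). These receptors are known from macrophages and dendritic cells. Macrophage markers were higher in males for 7 of 12 genes in trained and 6 of 12 in non-trained mice, with median log2 differences of 1.73 and 1.53. In trained mice 6 of these 7 calls were lost without library 3 of the trained males and 5 by limma-voom, and in non-trained mice 5 of the 6 were lost without library 4 of the non-trained males, 5 with library size alone and 1 by limma-voom. With 1 library left out, Mrc1 was called in 3 of the 20 fits in trained mice, and Cd68 in 4 of the 20 in non-trained mice. Their part in the sensing genes was not tested.

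Of 11 chemokine and cytokine genes, 1 was higher and 1 lower in trained males, and 2 were higher and 1 lower in non-trained males. Tnfsf10, encoding the death ligand TRAIL, averaged 8.30 ± 0.855 CPM in trained males and 4.35 ± 1.36 CPM in trained females (0.93, SE 0.18, adjusted p = 0.0039), and 8.14 ± 1.32 CPM in non-trained males and 5.16 ± 1.02 CPM in non-trained females (0.66, SE 0.18, adjusted p = 0.032), the second lost in 6 of the 20 fits. Il15, a cytokine gene known in muscle, averaged 4.55 ± 1.1 CPM in trained males and 8.07 ± 0.839 CPM in trained females, and 3.06 ± 1.12 CPM in non-trained males and 6.98 ± 0.379 CPM in non-trained females. Its log2 differences were -0.82 (SE 0.20, adjusted p = 0.017), lost without library 3 of the trained males (adjusted p = 0.056), and -1.19 (SE 0.20, adjusted p = 0.0016). Ccl8, a monocyte-attracting chemokine gene, was higher in non-trained males by 3.78 (SE 0.83, adjusted p = 0.013), lost by limma-voom (adjusted p = 0.12). Of the 35 genes of the interferon gamma response and antigen presentation 0 passed in either state by edgeR. DESeq2 called 1 of them in trained and 6 in non-trained mice, where it called 1401 and 1465 of all 15709 genes.

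The interferons themselves were at the limit of detection. None of 21 interferon genes of types I, II and III that the tables list had enough counts to be tested, 3 had any count at all, and they held 16.74 expected counts over the 20 libraries together, at most 6.45 in a library. Library 2 of the trained females and library 4 of the non-trained males held 0 of them. Transcripts of the interferons were thus not detectable beyond traces at this depth, and interferon protein was not measured.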

How the data were processed

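RNA was extracted from mouse muscle and made into directional poly(A) libraries, per the labels' protocols. The authors deposited RSEM expected counts for each library, and beside them TPM, used here for levels between genes and for the order of libraries. The submitters' processing notes name RSEM 1.3.1, STAR 2.5.1, limma, edgeR, cutadapt and Trim Galore, with the build GRCm38. Of 53465 gene identifiers, 53360 matched GENCODE M21, and the rest held 0.00673% of the counts.

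Expected counts were rounded, filtered with filterByExpr (minimum count 10) and TMM-scaled. All 4 groups entered 1 fit in edgeR 4.0.16 under R 4.3.3 (robust quasi-likelihood), and p-values were Benjamini-Hochberg adjusted over all 15709 genes within each of 6 comparisons, with a threshold of 0.05. CPM was computed on these scaled sizes, with a prior count of 2 for log2 CPM. Replicate numbers were given in accession order and name libraries only. The procedure was tested on simulated data. For training in females it recovered 46 of 100 genes changed 1.5-fold and 64 of 100 genes changed 2-fold, and it called 2 unchanged genes.

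All 9 genes were named. Of each further list, the 4 genes with the smallest unadjusted p and those called were eligible. For library 2 of the trained females, 6 genes per list and 10 over all genes were eligible by their ratio to the other libraries. Genes most like the 9 were the 10 with the highest Pearson r, with a mean of at least 1 CPM. Lists and genes were chosen with earlier results of these data known. The alternatives were DESeq2 1.42.0, limma-voom (limma 3.58.1), RLE size factors, library size alone, no filter, a strict filter (1 CPM in 5 libraries, mean of 20 counts), and omission of each single library. Leaving out library 2 of the trained females together with library 4 of the non-trained males was added after seeing the data. Total counts limit precision most for Isg15, with as few as 9 expected counts in a library.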

Additional observations from a re-analysis of the deposited data

Results flagged for a closer look

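Among the 36 sets of 5 libraries (9 genes in 4 groups), 7 held a library whose gap to its nearest neighbour was a larger part of the group's range than Dixon's critical value of 0.71 for 5 values. For independent, normally distributed sets chance flags about 1 in 20. The sets here share libraries, and library 2 of the trained females was named with its results known. The share of flagged sets over all tested genes was not computed, so the count of 7 cannot be set against chance. In trained females, library 2 stood apart for Isg15, at 2.08 CPM against 0.309 to 0.802 CPM in the other 4, and for Irf7, at 5.80 CPM against 1.55 to 2.63 CPM. In non-trained males, library 4 stood apart for Isg15 at 3.54 CPM against 0.498 to 0.830 CPM, for Irf7 at 10.7 CPM against 1.96 to 3.54 CPM, for Oasl2 at 8.24 CPM against 3.11 to 3.93 CPM and for Rsad2 at 18.7 CPM against 4.15 to 5.79 CPM. Library 3 of the non-trained males was the low one for Ifi27, at 18 CPM against 21.3 to 22.2 CPM. The same library 4 held the highest summed erythroid markers, 3764 CPM, and library 2 of the trained females the highest of its group, 810.5 CPM, and their part was not tested.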

How the results depend on the processing

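No paired analysis was possible because the labels give the libraries no replicate numbers that groups share. Of 1458 refitted values (54 differences of the 9 genes under 27 alternatives), 1330 kept their direction and their side of the threshold, 127 changed sign at 2 decimals and 1 passed it newly: Irf7, male minus female in trained mice, without both libraries that stood apart (0.91, adjusted p = 0.039, so 1 of the 9 was called there, against 0 otherwise). The direction of any difference of the 9 genes with training, or in the interaction, therefore depends on single libraries for many of them. The cause was not tested. For Isg15, Ifit1 and Irf7 with training in females, DESeq2 gave no adjusted p, so only the direction could be compared there.

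With 1 library left out in turn, the sign changed for these differences. Training in females gave Isg15 -0.56 to 0.21, Ifit3 -0.25 to 0.13, Irf7 -0.36 to 0.21, Irf9 -0.08 to 0.11, Bst2 -0.06 to 0.30 and Rsad2 -0.38 to 0.19. Training in males gave Isg15 -0.22 to 0.84, Ifit1 -0.54 to 0.06, Irf7 -0.26 to 0.59, Irf9 -0.11 to 0.18 and Oasl2 -0.30 to 0.17. The mean of both sexes gave Isg15 -0.29 to 0.42, Irf7 -0.22 to 0.32 and Irf9 -0.05 to 0.11. The interaction gave Isg15 -0.23 to 0.85, Ifit1 -0.03 to 0.57, Ifit3 -0.42 to 0.05, Irf7 -0.31 to 0.53, Irf9 -0.14 to 0.15, Oasl2 -0.13 to 0.39 and Bst2 -0.10 to 0.28, while Rsad2 kept its sign there (-1.04 to -0.14). Male minus female gave Ifit3 -0.37 to 0.01, Bst2 -0.09 to 0.29 and Rsad2 -0.29 to 0.20 in trained mice, where Ifi27, at 0.0 to 2 decimals, ran from -0.04 to 0.03, and Isg15 -0.42 to 0.65, Ifit3 -0.24 to 0.23, Irf7 -0.04 to 0.80, Irf9 -0.06 to 0.21 and Bst2 -0.15 to 0.11 in non-trained mice.

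By limma-voom the sign changed for training in females for Irf7 (-0.04), in males for Isg15 (0.39), Irf7 (0.18) and Irf9 (0.01), in the mean for Isg15 (0.13) and Irf7 (0.07), in the interaction for Isg15 (0.51), Irf7 (0.22) and Oasl2 (-0.09), and in non-trained mice for Bst2 (-0.01). Without the low-count filter it changed for Isg15 in the interaction (0.01). Without both libraries it changed for training in females for Irf7 (-0.37), Irf9 (-0.09) and Bst2 (-0.06), in males for Isg15 (0.85), Ifit1 (0.07), Irf7 (0.59), Irf9 (0.19) and Oasl2 (0.17), in the mean for Isg15 (0.14) and Irf7 (0.11), in the interaction for Isg15 (1.41), Ifit3 (0.02), Irf7 (0.96), Irf9 (0.28) and Rsad2 (0.17), in trained mice for Rsad2 (0.21), and in non-trained mice for Isg15 (-0.43), Ifit3 (-0.25), Irf7 (-0.05), Irf9 (-0.07) and Bst2 (-0.16). The same setting kept the sign but widened the range for Isg15 with training in females (-0.57) and, in the interaction, for Ifit1 (0.71), Oasl2 (0.43) and Bst2 (0.45).

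Over all genes, DESeq2 called 33 for training in females, 5 in males, 30 in the mean, 1 in the interaction, 1401 for sex in trained and 1465 in non-trained mice, where edgeR called 0, 0, 2, 0, 880 and 818. Leaving out 1 library gave 0 to 1, 0 to 1, 0 to 7, 0 to 0, 494 to 1239 and 435 to 1038. In the mean, limma-voom called 0, no filter 1 and both libraries left out 0. For sex in trained mice, no filter gave 558 and both libraries left out 559.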
